A study of Mus musculus with 18 samples.

Results

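Serpina3c, Serpina3f, Serpina3g, Serpina3i, Serpina3m and Serpina3n are 6 genes of the mouse Serpina3 cluster of serine protease inhibitors (serpins), out of 55359 genes in the count tables. They were picked by symbol as acute phase members of the cluster, and the set was chosen because Serpina3f rose in the spinal cord, so the MSU-against-PBS values of the cord are a description with no test. The data were RNA-seq read counts from 3 tissues of C57BL/6 mice aged 10 weeks, in a model of gout. Monosodium urate (MSU) crystals, the form in which uric acid precipitates in gout, or phosphate-buffered saline (PBS) as vehicle had been given at the right ankle joint in a volume of 100 µl, and the mice were killed 8 h later. Ankle joint, dorsal root ganglia (DRG, the home of the sensory neuron somata) and spinal cord were each sequenced in 3 PBS and 3 MSU libraries, 18 in all. The control libraries are titled WT and tagged untreated in the sample labels, whereas the protocol and the table columns name PBS; they are called PBS here. The labels name no allele and no second agent. The labels do not say which spinal segments or ganglia were taken, nor whether the 3 tissues came from the same mice, although numbers in the column names recur across tissues.

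Serpins act as bait. A flexible stretch near the carboxyl end, the reactive centre loop, is cut by the target protease, which is then trapped in a covalent complex, and the sequence of the loop sets which proteases are caught. Humans have a single SERPINA3 gene, which encodes the acute phase plasma protein alpha1-antichymotrypsin, whereas mice carry an expanded cluster whose copies differ most in this loop. Interleukin-6 acting through the transcription factor STAT3, together with C/EBP factors and glucocorticoids, is the classical signal for acute phase genes in the liver, and Serpina3n is also a widely used marker of reactive astrocytes.

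Total counts ranged from 11632950 to 38812815 per library. Labelled tissues carried their own markers: the summed CPM (counts scaled to library size by the trimmed mean of M-values, per 1000000 reads) of 10 sensory neuron genes were 7788 to 12201 in DRG libraries and 16.2 to 22.3 in ankle libraries, and those of 7 astrocyte genes were 3946 to 6004 in cord libraries and 75.4 to 172 in DRG libraries. Transcripts typical of other tissues differed between some libraries. The summed CPM of 5 skeletal muscle genes was 11110, 1309 and 1279 in the DRG MSU libraries, against 20.2 to 206 in the DRG PBS libraries. All 5 were at least 2-fold higher with no overlap between the groups (median log2 5.30), and 1 of the 5 was called higher. Scn10a, a sodium channel of sensory neurons, stood at 4.35 CPM in cord PBS library 3 and 8.43 CPM in cord MSU library 3 but at 0 to 0.355 CPM in the other 4 cord libraries. The part of these transcripts in the results below was not tested. Values without DRG MSU library 1, cord PBS library 3 or cord MSU library 3 are given where the tissue is described. Leaving out DRG MSU library 1 does not remove the muscle difference, since the other DRG MSU libraries also lay above all DRG PBS libraries. Since whole tissues were sequenced, fewer cells of a type and less RNA per cell cannot be told apart.

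The 6 genes lie in 1 run of 14 Serpina3 genes on chromosome 12, of which 4 are annotated as pseudogenes in GENCODE M21. In the order along the chromosome they are the third (Serpina3c), sixth (Serpina3f), seventh (Serpina3g), ninth (Serpina3i), twelfth (Serpina3m) and fourteenth (Serpina3n), and Serpina3c alone is on the minus strand. Their coding sequences are 81.9% to 92.0% identical over the aligned bases. Serpina3g entered with a reading frame of 747 bases, against 1227 to 1338 in the others, so its identities cover only a part of their length. The lowest value, Serpina3g with Serpina3m, rests on 651 aligned bases. Serpina3f and Serpina3i were the closest pair (92.0%), followed by Serpina3c and Serpina3m (89.7%). The DNA that codes for the reactive centre loop is shown because this is where the copies part: lower case letters match Serpina3n in the alignment and capitals do not. It was read from GENCODE M21 transcripts (GRCm38), and the search pattern was widened after Serpina3c was found to lack its first form.
Serpina3n: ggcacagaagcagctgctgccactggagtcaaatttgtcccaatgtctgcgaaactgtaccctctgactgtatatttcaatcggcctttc
Serpina3c: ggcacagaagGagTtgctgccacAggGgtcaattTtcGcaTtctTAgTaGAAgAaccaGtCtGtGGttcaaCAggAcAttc
Serpina3m: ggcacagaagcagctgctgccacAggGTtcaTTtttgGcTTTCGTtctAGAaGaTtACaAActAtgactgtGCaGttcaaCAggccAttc
Serpina3f: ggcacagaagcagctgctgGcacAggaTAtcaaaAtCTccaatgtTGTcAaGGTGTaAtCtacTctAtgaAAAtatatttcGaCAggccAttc
Serpina3i: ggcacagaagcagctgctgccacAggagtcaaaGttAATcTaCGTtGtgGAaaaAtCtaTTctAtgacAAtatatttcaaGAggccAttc
Serpina3g: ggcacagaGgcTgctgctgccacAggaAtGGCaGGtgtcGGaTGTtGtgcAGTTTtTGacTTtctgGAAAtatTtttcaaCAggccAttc
The first codons, which form the hinge of the loop, were shared almost letter for letter, whereas 22 bases of Serpina3i, 23 of Serpina3c, 27 of Serpina3f, 28 of Serpina3m and 32 of Serpina3g had no match in Serpina3n. The stretch was 90 bases long in 4 genes, 81 in Serpina3c and 93 in Serpina3f.

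Likeness between copies bears on the counts. Of all 100-base windows in a gene's M21 transcripts, those found unchanged in another gene made up 0% for Serpina3c, 0.204% for Serpina3n, 2.25% for Serpina3i, 3.40% for Serpina3f, 3.49% for Serpina3g and 6.09% for Serpina3m. All 95 such windows of Serpina3m were shared with Serpina3k, which it overlaps in that annotation. With 50-base windows the shares were 4.25% to 19.1%, so that a part of the reads of each gene could have been assigned to another copy or dropped, most of all for Serpina3m.

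In the ankle joint, where the crystals lay, all 6 genes rose, and every MSU library exceeded every PBS library for each of them. Serpina3n, the mouse counterpart of alpha1-antichymotrypsin, secreted and known to inhibit granzyme B and leukocyte elastase, had 242, 326 and 276 CPM in the PBS libraries and 2042, 1757 and 2385 CPM in the MSU libraries. Its rise was 7.33-fold (log2 2.87, SE 0.16; adjusted p = 7.66e-06, edgeR quasi-likelihood test, Benjamini-Hochberg over 17690 genes). Serpina3m had 7.19, 12.1 and 8.39 CPM after PBS and 144, 131 and 240 CPM after MSU, an 18.6-fold rise (log2 4.22, SE 0.34; adjusted p = 0.000265). The third MSU library stood well above the other two for this gene.

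Serpina3f changed by as much and with less spread. Its 4.48, 3.45 and 2.20 CPM in ankle PBS libraries became 62.6, 63.8 and 64.7 CPM in MSU libraries, 18.2-fold higher (log2 4.19, SE 0.22; edgeR adjusted p = 7.66e-06). Serpina3i, its closest relative in coding sequence, went from 5.55, 2.98 and 2.68 CPM to 17.3, 23.3 and 19.4 CPM, a 5.22-fold rise (log2 2.38, SE 0.28; edgeR adjusted p = 0.000256). Serpina3g, also called Spi2A, an inhibitor inside the cell that blocks cysteine cathepsins and is induced in leukocytes, went from 5.79, 5.50 and 4.40 CPM to 25.5, 19.2 and 12.9 CPM. That was a 3.67-fold rise (log2 1.87, SE 0.25; edgeR adjusted p = 0.000433) with the widest relative spread among MSU libraries after Serpina3m. The smallest rise was that of Serpina3c, a kallikrein-binding protein, from 29.2, 37.9 and 33.3 CPM to 101, 94.0 and 97.8 CPM, which is 2.92-fold (log2 1.55, SE 0.11; edgeR adjusted p = 2.15e-05). For comparison, 21.6% of all genes tested in the ankle were called higher and 27.7% had every MSU library above every PBS library.

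**Figure D1:**
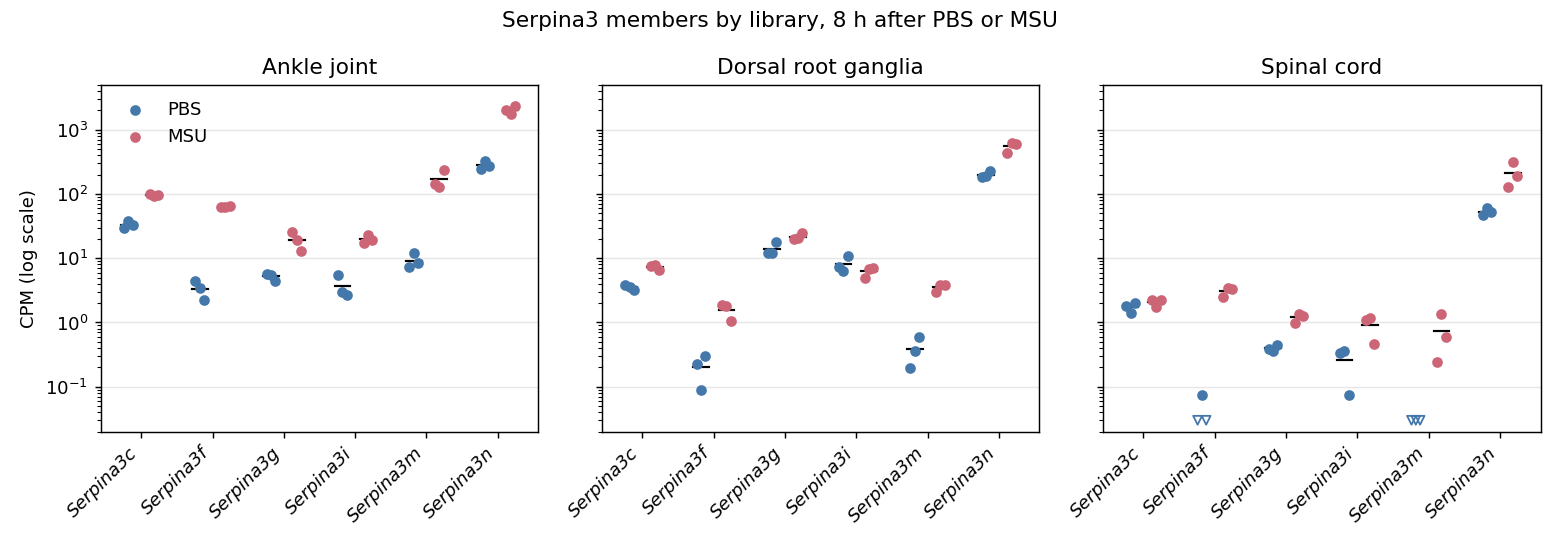
CPM (log axis) of the 6 Serpina3 genes in each of the 18 libraries, PBS in blue and MSU in red. A bar marks the mean of each group of 3 whose values are all above 0. Open triangles at the foot mark libraries with a count of 0, and groups that hold them (cord PBS of Serpina3f and Serpina3m) have no bar. In the ankle the red points lie above the blue points for all 6 genes, in the DRG for 5 (not Serpina3i), and in the cord for 5 (not Serpina3c).

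Markers of other cell types moved in the same ankle libraries. Of 12 neutrophil markers 8 rose, with summed CPM of 467 to 1673 after PBS and 3720 to 4366 after MSU, and none of the 12 was at 0. Of 9 macrophage and monocyte markers 6 rose (summed CPM 1460 to 1727 and 2181 to 2868, none at 0). All 5 keratinocyte markers fell, from summed CPM of 11611 to 12957 to 4768 to 6751. The 8 hepatocyte markers summed to 2.06 to 17.2 CPM after PBS and 6.11 to 6.64 CPM after MSU, with albumin (Alb) between 0.332 and 1.41 CPM in the MSU libraries. The part of these transcripts in the rise of the 6 genes, which summed to 294 to 388 CPM after PBS and 2088 to 2820 CPM after MSU, was not tested.

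The rest of the cluster did not move as a block. In the ankle 5 of the other 8 genes were tested: 2 rose, 2 fell, and the pseudogene Serpina3e-ps had a log2 change of -0.48 (edgeR adjusted p = 0.494). Serpina3b fell from 293 ± 66.8 to 120 ± 3.15 CPM (mean ± SD, n = 3; log2 -1.29, edgeR adjusted p = 0.000221). Serpina3j fell from 361 ± 82.1 to 167 ± 3.51 CPM (log2 -1.11, edgeR adjusted p = 0.000423). These were the libraries in which the keratinocyte markers fell, whose part was not tested. Serpina3k rose from 41 to 340 counts over the group (log2 3.94, SE 0.40, edgeR adjusted p = 9.42e-05), although its shared windows with Serpina3m leave its own part of those reads uncertain. Serpina3k passed the filter only through its MSU libraries, so its p rests on the group where it is high. The transcribed pseudogene Serpina3h rose by 0.72 on the log2 scale (edgeR adjusted p = 0.00354). In the DRG only Serpina3h passed the filter among these 8 (log2 0.38, edgeR adjusted p = 0.391), and in the cord none did.

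**Figure D2:**
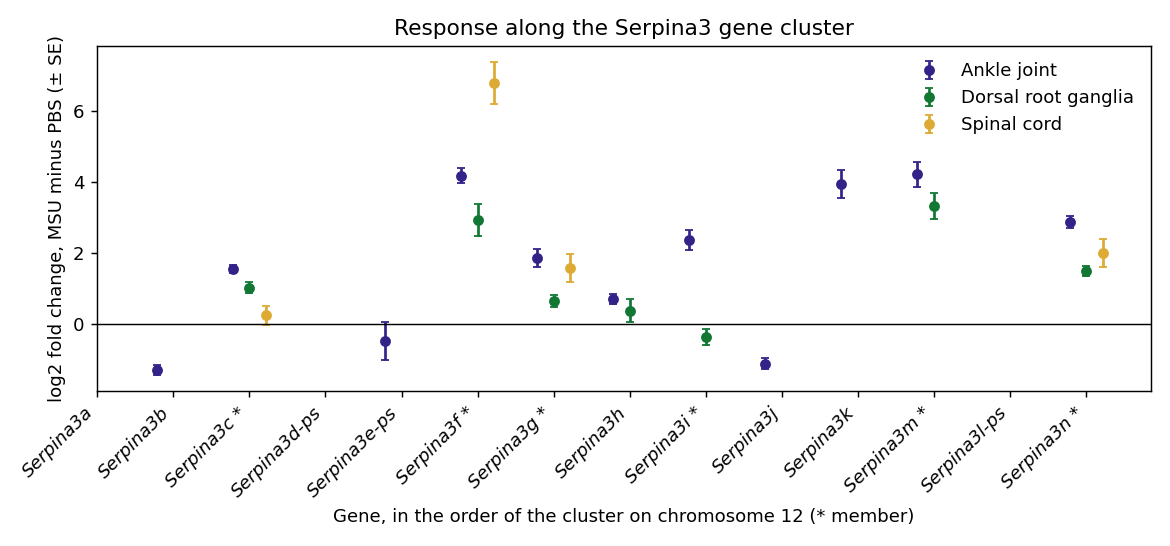
log2 fold change (MSU minus PBS, bars ± SE of the fit, n = 3 against 3) of each Serpina3 gene that passed the filter, in the order of the cluster on chromosome 12, by tissue; asterisks mark the 6 genes described. Ankle values of Serpina3b (-1.29) and Serpina3j (-1.11) lie below 0, next to Serpina3c and Serpina3i above it; the cord value of Serpina3f rests on 1 control count.

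In the DRG 5 of the 6 genes rose. Serpina3n had 182, 191 and 226 CPM in PBS libraries and 442, 630 and 612 CPM in MSU libraries, a 2.81-fold rise (log2 1.49, SE 0.15; edgeR adjusted p = 0.000199 over 17008 genes). The lowest MSU value was that of library 1, the one richest in muscle transcripts; without it the log2 change was 1.64 (edgeR adjusted p = 4.37e-07). Serpina3m went from 0.195, 0.354 and 0.591 CPM to 2.98, 3.83 and 3.81 CPM, 10.1-fold higher (log2 3.33, SE 0.36; edgeR adjusted p = 0.000163), and Serpina3f from 0.223, 0.089 and 0.296 CPM to 1.90, 1.80 and 1.05 CPM, 7.61-fold higher (log2 2.93, SE 0.45; edgeR adjusted p = 0.000912). Both were scarce and passed the filter only through their MSU libraries, so their p-values rest on the group where they are high. Serpina3f had 8, 2 and 5 reads in PBS libraries and 28, 38 and 30 in MSU libraries.

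Serpina3c rose 2.04-fold in the DRG, from 3.82, 3.59 and 3.19 CPM to 7.45, 7.84 and 6.54 CPM (log2 1.03, SE 0.16; edgeR adjusted p = 0.00109). Serpina3g was already at 12.3, 11.9 and 17.9 CPM after PBS and reached 20.2, 20.9 and 24.4 CPM after MSU. Its 1.57-fold rise (log2 0.65, SE 0.16; edgeR adjusted p = 0.0111) was the weakest call: leaving out PBS library 1 or MSU library 3 gave adjusted p = 0.0502 and 0.0517, and 1 fit of all 18 libraries gave 0.0587. Serpina3i was not called, with 7.23, 6.42 and 11.0 CPM after PBS and 5.01, 6.76 and 7.16 CPM after MSU. Its groups overlapped, and its log2 change was -0.36 (SE 0.22; edgeR adjusted p = 0.232). Among all genes tested in the DRG, 16.7% were called higher and 24.8% had every MSU library above every PBS library. The 5 genes called include Serpina3f and Serpina3m, with the limit given above. Without MSU library 1 the same 5 genes were called, with adjusted p between 4.37e-07 and 0.0113. Beside these rises, 3 of 12 neutrophil markers rose (summed CPM 153 to 262 after PBS, 262 to 696 after MSU, none at 0), 5 of 9 macrophage and monocyte markers rose (102 to 180 against 216 to 229, none at 0) and 6 of 10 sensory neuron markers fell (10107 to 12201 against 7788 to 8721, none at 0). Their part was not tested.

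The ankle and DRG responses were then compared in 1 model of the 12 libraries, which takes all of them as independent. Serpina3i differed most, with an ankle response above the DRG response by 2.80 on the log2 scale (SE 0.40; edgeR adjusted p = 0.000226). Serpina3n differed by 1.43 (SE 0.24; adjusted p = 0.000674, edgeR), Serpina3g by 1.28 (SE 0.32; adjusted p = 0.00906, edgeR) and Serpina3c by 0.58 (SE 0.17; adjusted p = 0.0207, edgeR). The difference for Serpina3c lost its call without DRG PBS library 1 (edgeR adjusted p = 0.0771) or DRG MSU library 3 (edgeR adjusted p = 0.0566). For Serpina3f the difference was 1.34 (SE 0.52; adjusted p = 0.0693, edgeR), which was called without ankle PBS library 1 (edgeR adjusted p = 0.0318) or DRG PBS library 2 (edgeR adjusted p = 0.0352), and for Serpina3m it was 0.90 (SE 0.60; adjusted p = 0.293, edgeR). Of all 19773 genes in that model, 16.4% were called with the ankle response above. The column names share 3 numbers between ankle and DRG libraries of the same treatment, and the labels do not say whether these are the same mice. With that number as a random block in limma-voom, tried after the data were seen, the same 4 genes were called (adjusted p from 0.000118 to 0.0448, estimated correlation 0.13), and in limma-voom without it Serpina3c was not (adjusted p = 0.0565).

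**Figure D3:**
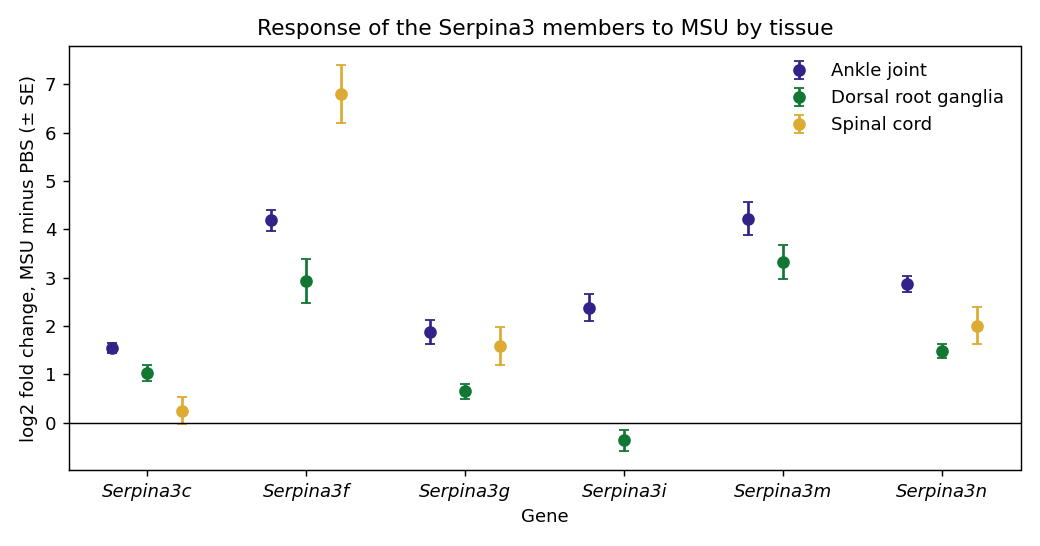
log2 fold change (MSU minus PBS, bars ± SE of the edgeR fit, n = 3 against 3) of the 6 genes in the ankle, DRG and cord. The ankle point lies above the DRG point for each gene, the DRG point of Serpina3i lies below 0 (-0.36), and Serpina3i and Serpina3m have no cord point because they did not pass the filter there.

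The spinal cord contrast chose the set. Serpina3f was all but unread in the cord of PBS mice, with 0, 1 and 0 reads, and had 51, 67 and 78 reads after MSU (2.52, 3.40 and 3.27 CPM). The ratio of the summed counts, scaled to library size, was 147 with a 95% interval of 26.1 to 5844 that covers counting error only; the fitted log2 change was 6.79 and became 8.91 without PBS library 2, which held the single read. Serpina3m had no read in the 3 PBS libraries and 5, 27 and 14 reads after MSU, at least 11.5-fold higher when set against 3 counts over the PBS group. Serpina3n carried by far the most reads, with 47.8, 59.7 and 51.6 CPM after PBS and 130, 320 and 190 CPM after MSU, a 4.03-fold difference (log2 2.01, SE 0.39). Its MSU libraries spread widely, and the lowest of them was above the highest control.

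The other 3 genes were low in the cord. Serpina3g went from 0.387, 0.366 and 0.442 CPM to 0.987, 1.37 and 1.26 CPM (log2 1.59, SE 0.39; 19 reads against 77 over the group). Serpina3i had 7, 5 and 1 reads after PBS and 22, 23 and 11 after MSU, a ratio of mean CPM of 3.49, and like Serpina3m did not pass the filter. Serpina3c had 1.84, 1.39 and 1.99 CPM against 2.27, 1.73 and 2.22 CPM, and its groups overlapped (log2 0.25, SE 0.27). Every MSU library was above every PBS library for 5 of the 6 genes, which is not read against the 13.7% of all 17507 genes tested that did so, since this contrast picked the set. Leaving out cord MSU library 3, where Scn10a was highest, left log2 changes of 6.72 for Serpina3f, 1.55 for Serpina3g and 2.09 for Serpina3n; leaving out PBS library 3 left 6.44, 1.67 and 2.01. Of all genes tested in the cord, 2.74% were at least 2-fold higher with no overlap and 1.39% were so lower, the shares to set beside the marker counts that follow. The 11 neutrophil markers tested of 12 included 4 that were at least 2-fold higher with no overlap (summed CPM 85.2 to 104 after PBS and 112 to 264 after MSU), and none of the 12 was at 0. Of 9 macrophage and monocyte markers 4 were so (120 to 160 and 175 to 290, none at 0). Their part was not tested. The summed CPM of the 7 astrocyte markers overlapped between groups (3946 to 4755 and 4223 to 6004), and 0 of 7 were at least 2-fold higher with no overlap. A sum can hide single genes, and Gfap is given below. Summed microglia markers (170 to 178 and 124 to 150) and endothelial markers (233 to 322 and 157 to 217) were lower after MSU. Of 6 microglia markers 1 was at least 2-fold lower with no overlap and 0 higher. Of 7 endothelial markers 3 were so lower and 1 higher.

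Per kilobase of exon (RPKM, with lengths from GENCODE M21), Serpina3n was the most abundant of the 6 in every group. It made up 83.9% of their summed RPKM in ankle PBS and 84.0% in ankle MSU libraries, 88.8% and then 93.4% among DRG libraries, and 95.9% and 96.6% among cord libraries. Within the whole 14-gene cluster its share in the ankle went from 27.5% to 73.2%, while Serpina3b and Serpina3j went from 28.6% and 33.9% to 4.25% and 5.69%. Its mean RPKM ran from 25.8 in cord PBS through 105 in cord MSU, 109 in DRG PBS, 128 in ankle PBS and 288 in DRG MSU to 874 in ankle MSU. Of these neighbours cord MSU, DRG PBS and ankle PBS overlapped (64.2 to 157, 99.1 to 124 and 111 to 150), and the other steps did not.

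The second place changed with the tissue. It fell to Serpina3c in ankle PBS libraries (14.2 RPKM), to Serpina3m in ankle MSU libraries (87.2 ± 29.1 RPKM, mean ± SD, n = 3), to Serpina3g in both DRG groups (7.47 and 10.9 RPKM), to Serpina3c in cord PBS (0.789 RPKM) and to Serpina3f in cord MSU (1.36 RPKM). Serpina3f ranged in the order cord PBS (0.0107 RPKM), DRG PBS (0.0995), DRG MSU (0.728), cord MSU (1.36), ankle PBS (1.39) and ankle MSU (24.4), of which only cord MSU and ankle PBS overlapped. Serpina3m was ordered as cord PBS (0 RPKM), DRG PBS (0.248), cord MSU (0.435), DRG MSU (2.18), ankle PBS (5.06) and ankle MSU (87.2), with DRG PBS and cord MSU overlapping. Serpina3c rose through cord PBS (0.789 RPKM) and cord MSU (0.953), which overlapped, then DRG PBS (1.79), DRG MSU (3.47), ankle PBS (14.2) and ankle MSU (38.6).

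Serpina3g and Serpina3i were the exceptions to this order, being higher in DRG than in ankle after PBS. Serpina3g stood at 0.190 RPKM in cord PBS, 0.583 in cord MSU, 2.34 in ankle PBS, 7.47 in DRG PBS, 8.03 in ankle MSU and 10.9 in DRG MSU, where ankle MSU overlapped both DRG groups. Serpina3i stood at 0.117 RPKM in cord PBS, 0.414 in cord MSU, 1.59 in ankle PBS, 3.001 in DRG MSU, 4.15 in DRG PBS and 7.86 in ankle MSU, where DRG MSU overlapped both ankle PBS and DRG PBS.

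**Figure D4:**
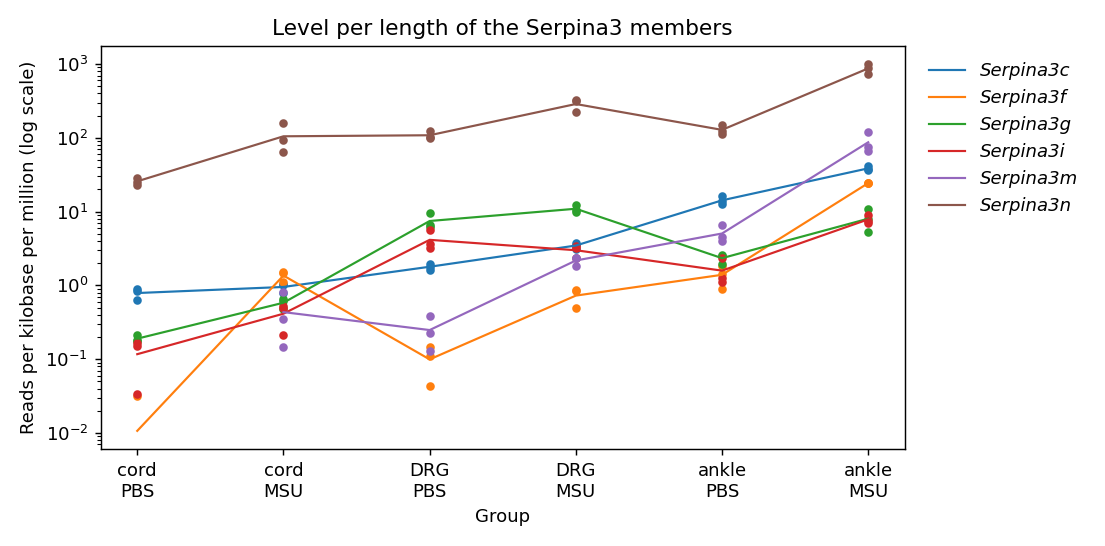
RPKM (log axis) of the 6 genes in each library, with lines joining the means of the 6 groups as a guide to the eye; values of 0 cannot be drawn on the log axis, so Serpina3m has no cord PBS point and Serpina3f has 1. Serpina3n lies above the other 5 in every group, and Serpina3g and Serpina3i peak in DRG relative to ankle among PBS groups.

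Tissue differences among the 9 PBS libraries were tested in 1 model of 19648 genes. Between ankle and DRG all 6 genes were called, where 80.2% of all genes were. Serpina3m was 22.9-fold higher in ankle (log2 4.52, edgeR adjusted p = 1.36e-06), Serpina3f 14.8-fold (log2 3.88, edgeR adjusted p = 6.52e-06) and Serpina3c 8.22-fold (log2 3.04, edgeR adjusted p = 2.21e-09). The sign was opposite for Serpina3g (log2 -1.60, edgeR adjusted p = 1.08e-05) and Serpina3i (log2 -1.29, edgeR adjusted p = 0.00306). Serpina3n differed little (log2 0.30, edgeR adjusted p = 0.0449), a call that was lost in 8 of 15 alternatives: with RLE scaling and without ankle PBS library 2 or 3, DRG PBS library 1 or 2, or any of the 3 cord PBS libraries (edgeR adjusted p from 0.0507 to 0.190). Against the cord, ankle was higher for Serpina3c (log2 4.18, edgeR adjusted p = 2.93e-10) and Serpina3n (log2 2.33, edgeR adjusted p = 8.53e-09), where 79.5% of all genes were called. DRG exceeded cord for Serpina3n (log2 2.03, edgeR adjusted p = 9.00e-08) and Serpina3c (log2 1.14, edgeR adjusted p = 0.000196), where 58.8% of all genes were called. Serpina3g (0.366 to 0.442 CPM in cord PBS libraries) and Serpina3i (0.074 to 0.366 CPM) passed the filter of this model only through ankle and DRG libraries. Their differences from the cord are therefore a description with no p. These were log2 3.64 and 3.72 for ankle, and 5.24 and 5.02 for DRG. Serpina3m and Serpina3f passed the filter of this model only through the ankle libraries, so their p-values against the DRG rest on the group where they are high. For Serpina3m the cord controls held no read and the DRG PBS libraries 7, 8 and 10 reads. Its differences from the cord are therefore a description, and no fold or p is given. Differences of Serpina3f from the cord are not tested, since its cord level chose it.

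Some members moved more alike than others. After subtracting each tissue's mean, log2 CPM of Serpina3m and Serpina3n had a Pearson r of 0.984 over the 18 libraries, Serpina3f and Serpina3n 0.938, and Serpina3f and Serpina3g 0.924, whereas Serpina3c and Serpina3i had 0.498. These are descriptions: the libraries share the MSU contrast, and similar copies share a few reads. Across the whole genome, the 5 genes most like Serpina3n among 15219 candidates were Nop16 (r = 0.978), Pdpn (0.975), Spidr (0.971), Osmr, the oncostatin M receptor (0.968), and Bcl3 (0.966). With tissue means subtracted they were Clec4d (0.975), Ralgds (0.972), Myd88 (0.970), Clec4e (0.969) and Srgn (0.968). For Serpina3f the list was led by F10, coagulation factor X (0.985), Gpr65 (0.974), Ms4a6d (0.974), Nfkbia (0.970) and Il1rn, the interleukin-1 receptor antagonist (0.970), and within tissues by Mefv (0.977), Osmr (0.976), Lcn2 (0.974), Pirb (0.973) and Cxcl1 (0.972). For Serpina3g it was Timeless (0.986), Arpc1b (0.979), Ctsl (0.977), Il6st (0.976) and Eva1c (0.974), and within tissues Sbno2 (0.952), Ralgds (0.951), Il4ra (0.941), Map3k14 (0.938) and Bcl3 (0.937).

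Genes of the interleukin-6, STAT3 and C/EBP pathway were read beside the 6 genes. In the ankle 14 of 17 tested rose and 1 fell, with a median log2 change of 1.61 against -0.02 over all genes. The cytokine gene Il6 was 935-fold higher (0.389 ± 0.100 CPM after PBS and 391 ± 145 after MSU, mean ± SD, n = 3, edgeR adjusted p = 1.49e-05). It passed the filter only through its MSU libraries, so its p rests on the group where it is high. Lif was 41.6-fold higher (edgeR adjusted p = 1.14e-06) and Stat3 3.20-fold (edgeR adjusted p = 1.44e-05). In the DRG 11 of 16 rose and 1 fell (median log2 0.97 against 0.02). Cebpb rose 14.9-fold (edgeR adjusted p = 1.04e-06), Cebpd 10.5-fold (edgeR adjusted p = 9.58e-05), the receptor gene Il6ra 3.62-fold (edgeR adjusted p = 4.91e-06) and Osmr 2.18-fold (edgeR adjusted p = 8.09e-05). In the cord 7 of 16 were at least 2-fold higher with no overlap and none was lower, where 2.74% and 1.39% of all genes were, and Osmr went from 9.47 ± 0.632 to 50.2 ± 13.6 CPM (mean ± SD, n = 3).

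Other acute phase genes gave 14 of 20 higher and none lower in the ankle (median log2 1.94), and 16 of 17 higher in the DRG (median 2.84). In the cord 11 of 14 were at least 2-fold higher with no overlap (median 2.13, against -0.01 over all genes). Ptx3, a secreted pattern recognition molecule, was 104-fold higher in the ankle (edgeR adjusted p = 1.12e-06) and 61.7-fold in the DRG (edgeR adjusted p = 1.21e-07). Saa3, a serum amyloid A gene, was 341-fold higher in the DRG (edgeR adjusted p = 6.43e-07). With a mean of 0.096 CPM after PBS, Saa3 passed the filter only through its MSU libraries, so its p rests on the group where it is high. The list of glucocorticoid-induced genes, which also holds the receptor gene Nr3c1, gave 6 of 10 higher and 1 lower in the ankle and 9 of 10 higher in the DRG. The 1 lower in the ankle was Nr3c1 (log2 -0.37, edgeR adjusted p = 0.0169). In the cord 7 of 10 were at least 2-fold higher with no overlap. The kinase gene Sgk1 rose 2.06-fold in the ankle (edgeR adjusted p = 0.0232) and 5.46-fold in the DRG (edgeR adjusted p = 3.39e-07). Of the interferon response genes, 17 of 18 rose in the ankle (median log2 2.66), and 11 of 18 rose and 1 fell in the DRG (median 0.92). In the cord 0 of 17 were at least 2-fold higher with no overlap and 2 were so lower (median 0.11). The differences between tissues were not tested. The guanylate-binding protein gene Gbp5 rose 13.2-fold in the ankle (edgeR adjusted p = 0.00022) and 2.56-fold in the DRG (edgeR adjusted p = 0.000131) and had a cord log2 change of -0.03. Genes of the astrocyte reactivity list gave 8 of 15 higher and 2 lower in the ankle (median log2 0.99) and 10 of 15 higher in the DRG (median 1.13). In the cord 6 of 15 were at least 2-fold higher with no overlap (median 0.98). In the cord Gfap itself went from 827 to 1589 mean CPM, a log2 change of 0.94 (SE 0.44).

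Proteases of the kinds that these serpins are known to meet were read next. Of 10 serine protease genes of neutrophils, mast cells and killer cells tested in the ankle, 2 rose and none fell (median log2 0.24), a share near the 21.6% of all ankle genes called higher. These were granzyme B, Gzmb (1.24 ± 1.00 to 13.0 ± 5.75 CPM, mean ± SD, n = 3; 9.53-fold, edgeR adjusted p = 0.00719), and granzyme A, Gzma (4.07-fold, edgeR adjusted p = 0.00533). In those libraries 1 of 9 T, NK and B cell markers rose (summed CPM 50.1 to 72.7 after PBS, 61.8 to 122 after MSU, none at 0). In the DRG 0 of 7 such proteases were called (median 0.67). In the cord 2 were tested (median 0.80), and neither was at least 2-fold higher with no overlap. Of the 10 cysteine cathepsins, the class blocked by Serpina3g, 6 rose and 1 fell in the ankle (median log2 0.41) and 5 rose in the DRG (median 0.29). In the cord none was at least 2-fold changed with no overlap. Cathepsin L, Ctsl, rose 1.44-fold in the ankle (edgeR adjusted p = 0.00457) and 1.24-fold in the DRG (edgeR adjusted p = 0.0398). Other serpins linked to inflammation gave 7 of 13 higher and 1 lower in the ankle and 6 of 11 higher in the DRG. Of the other clade A serpins, 1 of 5 tested rose and 1 fell in the ankle, shares near the 21.6% and 21.7% of all genes called higher and lower. Serpina10 was 8.91-fold higher (edgeR adjusted p = 0.00316), and Serpina12 fell by 2.32 on the log2 scale (edgeR adjusted p = 0.000114). Serpina10 (mean 0.218 CPM after PBS) passed the filter only through its MSU libraries, so its p rests on the group where it is high.

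Promoter sequence is given because 5 of these genes rose in both ankle and DRG and 1, Serpina3i, rose in the ankle and was not called in the DRG. RefSeq windows (GRCm38.p6, 250 bases before to 50 after the start) matched 5 of the 6 genes, Serpina3f with 2 starts, of which the first is shown. The Serpina3c and Serpina3n windows were 93.5% identical, those of Serpina3f and Serpina3g 83.7% and those of Serpina3f and Serpina3i 82.9%, whereas Serpina3f and Serpina3n were 69.5% identical. Capitals mark matches on either strand to a STAT motif (TTCNNNGAA), a C/EBP motif (TTNNGCAA) or an NF-kB motif (GGGA, 4 bases of any kind, then CC).
Serpina3f, chr12:104214294-104214593, plus strand: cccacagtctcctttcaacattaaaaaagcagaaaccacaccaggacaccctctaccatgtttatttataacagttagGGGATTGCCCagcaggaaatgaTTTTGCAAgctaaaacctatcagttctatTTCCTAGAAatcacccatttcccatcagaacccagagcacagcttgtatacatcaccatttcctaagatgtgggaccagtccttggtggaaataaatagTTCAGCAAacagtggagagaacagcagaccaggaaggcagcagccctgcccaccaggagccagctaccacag
Serpina3i, chr12:104262872-104263171, plus strand: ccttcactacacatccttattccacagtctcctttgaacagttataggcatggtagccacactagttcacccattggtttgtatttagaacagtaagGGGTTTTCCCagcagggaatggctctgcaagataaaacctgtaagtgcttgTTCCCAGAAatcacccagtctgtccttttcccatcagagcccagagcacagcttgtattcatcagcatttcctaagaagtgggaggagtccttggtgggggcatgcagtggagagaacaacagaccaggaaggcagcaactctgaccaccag
Serpina3g, chr12:104235897-104236196, plus strand: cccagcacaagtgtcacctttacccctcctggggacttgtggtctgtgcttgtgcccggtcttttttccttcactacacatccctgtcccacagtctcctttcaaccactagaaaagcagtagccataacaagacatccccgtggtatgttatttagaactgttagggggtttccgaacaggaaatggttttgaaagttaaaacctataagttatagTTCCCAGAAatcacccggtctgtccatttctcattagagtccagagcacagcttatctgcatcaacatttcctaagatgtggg
Serpina3n, chr12:104406458-104406757, plus strand: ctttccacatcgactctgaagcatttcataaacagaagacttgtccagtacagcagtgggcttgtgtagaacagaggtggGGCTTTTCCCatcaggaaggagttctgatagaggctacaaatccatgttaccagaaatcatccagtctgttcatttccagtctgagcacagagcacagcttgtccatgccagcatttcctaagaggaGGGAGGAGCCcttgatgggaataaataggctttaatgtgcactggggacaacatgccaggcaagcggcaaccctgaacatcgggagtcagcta
A STAT match was found in Serpina3f (at position -121 from the start), Serpina3i (at -102) and Serpina3g (at -33), and in 8.30% of all 32851 promoter windows. C/EBP matches were in Serpina3f alone, at -150 and -22, and in 10.8% of all windows. Counted from the second Serpina3f start, the STAT match lay at -210 and the C/EBP matches at -239 and -111, and that window held no NF-kB match. NF-kB matches were in Serpina3f, Serpina3i and Serpina3n, and in 20.7% of all windows. The glucocorticoid receptor core sequence TGTTCT, not capitalised, was in Serpina3c, Serpina3f, Serpina3i and Serpina3n and in 19.0% of windows, and the interferon-stimulated response element (GAAA, 2 bases of any kind, then GAAA) was in none of the 5 genes and in 3.44% of windows. Motif matches are descriptions of these letters, and no binding was measured.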

How the data were processed

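RNA-seq libraries of ankle joint, DRG and spinal cord, 3 per tissue and treatment, were analysed from the raw read counts per gene that the authors deposited, 1 table per tissue. The submitters' processing notes name mm39 as the genome build and HTSeq 0.11.3, HISAT2 and DESeq2 as tools; their roles, the annotation release and the strand setting are not given in the sources used here. The deposited counts were not normalised. Of 55359 gene identifiers, 52083 were paired with a symbol. Samples were grouped by the labels, and table columns were matched to them by name.

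Genes were kept by filterByExpr (minimum count 10, minimum total 15), scaled by the trimmed mean of M-values and tested with edgeR 4.0.16 (R 4.3.3; robust quasi-likelihood F test, 1 fit per tissue), with Benjamini-Hochberg adjustment over all genes tested and a threshold of 0.05. The ankle and DRG responses were compared in 1 model of 12 libraries and tissue levels in 1 model of 9 PBS libraries. The contrast in the cord gives folds and SE only; there a gene was counted where it was at least 2-fold changed and the groups did not overlap. CPM used the scaled library sizes of a tissue, RPKM those of all 18 libraries and exon lengths of GENCODE M21, which is on another build than the counts. Likeness was Pearson r of log2 CPM (prior count 2) over 18 libraries, among genes averaging 1 CPM or more and without predicted gene models. All 6 genes are described, and from each other list up to 4 genes with the smallest p in the ankle or DRG could be named; Gfap and the markers Alb and Scn10a were named in addition after their values were seen.

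The 6 genes and all lists were chosen with earlier results of these data known. Nothing says that the 3 libraries of a group came from separate mice, so p-values measure only the spread between libraries, which may be technical. No pair of libraries agreed within sampling noise (chi-square per degree of freedom of at least 5.29). Same-numbered PBS and MSU libraries had correlations of their deviations between -0.13 and 0.23, so the numbers were not taken to pair them. Intervals and floors (3 counts) cover counting error only. The scripts were tested on simulated data. Alternatives were RLE and upper quartile scaling, other filters, DESeq2 1.42.0, limma-voom (limma 3.58.1), a replicate block, 1 fit of all libraries and leaving out each library. The comparisons between tissues were also fitted with limma-voom, with and without the number in the column names as a random block, a choice made after seeing the data. Loop and promoter sequences were aligned with Biopython 1.88. Protein sequences were not used here.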

Additional observations from a re-analysis of the deposited data

Results flagged for a closer look

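For 4 of the 6 genes the response to MSU differed between ankle and DRG in a test of the difference itself. Of all 19773 genes in that model, 16.4% were called with the ankle response above and 14.8% with it below. The ankle log2 response exceeded the DRG response by 2.80 for Serpina3i (edgeR adjusted p = 0.000226), where every ankle MSU library was above every ankle PBS library while the DRG groups overlapped. It exceeded it by 1.43 for Serpina3n (edgeR adjusted p = 0.000674), by 1.28 for Serpina3g (edgeR adjusted p = 0.00906) and by 0.58 for Serpina3c (edgeR adjusted p = 0.0207). Without DRG MSU library 1, the library richest in muscle transcripts, these differences were 2.63, 1.26, 1.197 and 0.56 (edgeR adjusted p = 0.000535, 0.000704, 0.0226 and 0.0398). The Serpina3c call was the least stable, being kept under 16 of 21 alternatives (edgeR adjusted p up to 0.184, with no filter).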

How the results depend on the processing

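Of 12 ankle and DRG values of the 6 genes, 11 kept their call under all 14 alternatives, the exception being Serpina3g in the DRG (log2 0.54 to 0.85, adjusted p 9.59e-07 to 0.0587). The 11 include the DRG values of Serpina3f and Serpina3m. These passed the main filter only through their MSU libraries, so their kept calls rest on the group where they are high. No value reversed. The ankle-minus-DRG difference of Serpina3c lost its call with upper quartile scaling (edgeR adjusted p = 0.0529), with no filter (0.184), with limma-voom (adjusted p = 0.0565) and without DRG PBS library 1 (0.0771) or DRG MSU library 3 (0.0566); that of Serpina3f gained one with DESeq2 (adjusted p = 0.0381). In the cord, 480 genes were at least 2-fold higher with no overlap and 936 with no filter, as more genes were tested. Leaving out 1 library at a time gave 3164 to 3503 genes higher and 3068 to 3534 lower in the ankle, against 3823 and 3833 with all libraries. The DRG ranges were 1916 to 3354 higher and 2135 to 3688 lower, against 2844 and 3177, and the cord range 476 to 642. Of the 6 genes, 6 stayed called in the ankle and 4 to 5 in the DRG, 3 to 5 differed in response, and 5 to 6 differed between ankle and DRG after PBS. Under the replicate block all 30 values stayed the same by the rule of their kind. For the ankle, DRG and ankle-minus-DRG values of the 6 genes this means that the call was kept. For cord log2 changes, which have no call, and for counts it means a shift within a set margin. Serpina3n in the ankle had log2 2.87, and Serpina3g in the DRG had log2 0.66 (edgeR adjusted p = 0.00721). Genes called higher numbered 3709 in the ankle and 2464 in the DRG. By Spearman rho, 3, 1 and 1 of the 5 genes most like Serpina3n, Serpina3f and Serpina3g remained, and 1 of 5 for each within tissues. At 3 counts the floor was 0.0727 to 0.282 CPM per library, which limits Serpina3f, Serpina3i and Serpina3m in the cord. Serpina3f in DRG PBS library 2 (0.0886 CPM) also lay under the floor of its library (0.133 CPM).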
